A study of Mus musculus with 6 samples.

Results

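The 9 genes described here encode proteins that bind or edit double-stranded RNA in mammalian cells, together with the adaptor and the related sensors that act beside them: Ddx58 (RIG-I), Ifih1 (MDA5), Dhx58 (LGP2), Mavs, Tlr3, Tlr7, Eif2ak2 (PKR), Adar (ADAR1) and Zbp1. They were taken by symbol from the deposited gene table, and all 9 were found among its 54086 features. The RNA came from whole livers of mice with a hepatocyte-specific deletion of Mettl3 (HKO, n = 3) and of mice with floxed Mettl3 alleles (flox/flox, n = 3), all 8 weeks old and on a normal chow diet. A floxed allele is flanked by recognition sites for Cre recombinase and stays intact where the recombinase is absent. The sources used here name neither the promoter that drives the recombinase nor the deleted exons or the sex of the mice. METTL3 is the methyltransferase that places m6A, a methyl mark on adenosines, in mRNA, and the genotypes were compared to see how liver mRNA levels change with its loss from hepatocytes.

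Long double-stranded RNA is a product of viral replication, but it also forms from the cell's own transcripts, for example where inverted repeats pair. RIG-I and MDA5 bind it in the cytosol and signal through MAVS on the outer mitochondrial membrane, which leads to transcription of type I interferons and of the many genes that interferon induces. TLR3 and TLR7 sense double-stranded and single-stranded RNA in endosomes. PKR phosphorylates the translation initiation factor eIF2alpha when it binds double-stranded RNA, ADAR1 converts adenosines in such RNA to inosines and so weakens the pairing, and ZBP1 binds RNA in the left-handed Z form and can start necroptosis. Several of these genes are themselves induced by interferon, so the pathway can raise its own receptors. Loss of m6A in blood-forming cells of fetal mice has been linked to formation of endogenous double-stranded RNA.

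Expression was deposited as FPKM, a fragment count divided by gene length and by a scaling factor for the library. That factor was not the library's read total but 0.796 (flox/flox replicate 1) to 1.24 (HKO replicate 3) times it. Reads recalculated from FPKM came to 16637541 to 17993545 per HKO library and 16529358 to 18556076 per flox/flox library. Group values below are means ± SD in FPKM over 3 libraries. Fold changes are differences in log2(FPKM + 1), HKO minus flox/flox, a scale that understates the change of low genes. A gene was called when the limma test, fitted over 11086 genes with a mean of at least 1 FPKM, gave a Benjamini-Hochberg adjusted p under 0.05. Hepatocyte markers were abundant in every library: 5 of them, Alb included, summed to 19204 to 39580 FPKM in HKO and 42888 to 69227 FPKM in flox/flox livers. Mettl3 itself stood at 2.06 to 2.45 FPKM in libraries labelled HKO and 1.88 to 2.17 FPKM in flox/flox libraries. Such a value includes exons that the deletion may leave in place and the transcripts of other liver cells, and it is no check of the genotype. The directions given here therefore depend on the labels. Flox/flox replicate 1 stood apart for these genes: it was the lowest of the 6 libraries for 8 of the 9 members, while it was the lowest for 21.2% of all tested genes. With library totals it was again the lowest for 8 members, but then also for 47.0% of all tested genes. Results that rest on it are therefore given with and without it.

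All 9 members passed the filter on low values, and 2 of them were called, Zbp1 and Tlr7, both higher in HKO. In the same fit 5.95% of all tested genes were called higher in HKO and 6.86% lower. All 9 had a positive log2 fold change, as did 43.6% of all tested genes. Their median was 0.40, beside -0.06 over all tested genes. It was 0.22 without flox/flox replicate 1, where Mavs was negative, and 0.72 with each library scaled to its total, where the median of all tested genes was 0.26. The 3 HKO values lay above all 3 flox/flox values for 6 members (Ddx58, Tlr3, Tlr7, Eif2ak2, Adar and Zbp1), a pattern held by 16.8% of all tested genes, and overlapped for Ifih1, Dhx58 and Mavs. Without flox/flox replicate 1 it was 6 members beside 23.7% of all tested genes, and with library totals 8 members beside 42.1%. At an unadjusted p under 0.05 there were 5 members beside 33.8% of all tested genes, and 8 members beside 39% with library totals. Tlr3 and Tlr7 had means under 1 FPKM in flox/flox and passed the filter through their HKO levels. With a filter at a mean of 0.1 FPKM both Zbp1 and Tlr7 were called higher again, as were 4.24% of the genes then tested, and without flox/flox replicate 1 they were the 2 members called, beside 6.48% of all tested genes. With no filter no member was called, beside 1.14% of genes called higher. With a library other than flox/flox replicate 1 left out, 0 or 1 members were called, beside 0.153% to 2.1% of all tested genes called higher.

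**Figure D1:**
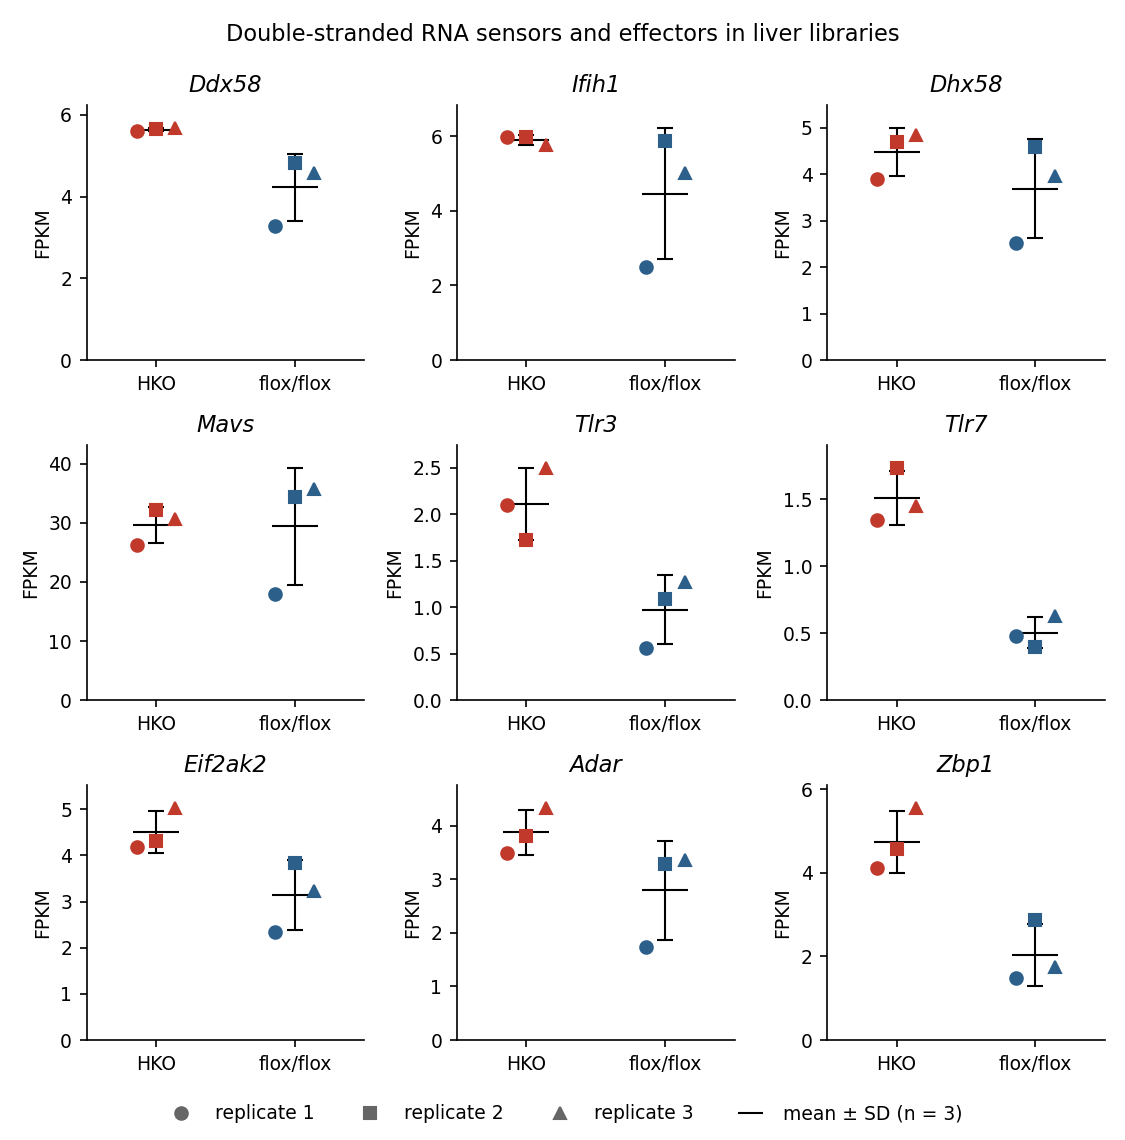
FPKM (vertical axes, starting at 0) of each of the 9 genes in the 3 HKO and the 3 flox/flox libraries, with a symbol per replicate and a bar for the mean ± SD (n = 3). Flox/flox replicate 1 (circle) is the lowest library in 8 of the 9 panels, and Tlr7 and Zbp1 show a clear gap between the genotypes.

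The RIG-I-like receptors are 3 related helicases. RIG-I, encoded by Ddx58 (ENSMUSG00000040296, GRCm38.p6 chromosome 4, 40203773 to 40239828, minus strand), recognizes short double-stranded ends that carry a 5′ triphosphate. Ddx58 stood at 5.59, 5.64 and 5.67 FPKM in the HKO libraries, in the order of their replicate numbers, against 3.28, 4.81 and 4.58 FPKM in the flox/flox libraries. The HKO values were nearly identical and all above the flox/flox values, which were spread more widely. The log2 fold change was 0.36 (SE 0.14, adjusted p = 0.122), and 0.22 (adjusted p = 0.141) without flox/flox replicate 1.

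MDA5, encoded by Ifih1 (ENSMUSG00000026896, chromosome 2, 62595798 to 62646255, minus strand), forms filaments along long double-stranded RNA. Ifih1 stood at 5.98, 5.98 and 5.75 FPKM in HKO, against 2.50, 5.88 and 5.00 FPKM in flox/flox libraries. Flox/flox replicate 1 held less than any other library, and replicate 2 overlapped the HKO range. The log2 fold change of 0.40 (SE 0.25, 95% interval -0.19 to 0.98, adjusted p = 0.301) became 0.10 (adjusted p = 0.504) without that library. LGP2, encoded by Dhx58 (ENSMUSG00000017830, chromosome 11, 100694884 to 100704271, minus strand), lacks the signalling domains of the other receptors and modulates them. Dhx58 stood at 3.90, 4.70 and 4.85 FPKM in HKO, against 2.52, 4.60 and 3.96 FPKM in flox/flox libraries, and the groups overlapped. Its log2 fold change was 0.25 (SE 0.19, adjusted p = 0.392), and 0.05 (adjusted p = 0.782) without flox/flox replicate 1.

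Promoter sequences from RefSeq (GRCm38.p6), reaching from 250 bases before to 50 bases after the start of transcription, were at hand for 6 of the 9 members: Ddx58, Ifih1, Mavs, Tlr3, Eif2ak2 and Adar. The core of the interferon-stimulated response element, which is GAAA, any 2 bases and GAAA, searched on both strands, was found for Ddx58, Ifih1 and Eif2ak2, each with 1 match, and in the windows of 3.99% of 27025 genes. The core of the gamma-activated site, TTCNNNGAA, which reads the same on both strands, was found for Eif2ak2 and for the most downstream of 3 Adar windows, and for 9.55% of genes. No match in a window says only that these letters are absent there, and a match is a description of sequence. The stretches with the response element core are shown as the sequence feature that 3 of the 6 members shared. The genotype difference did not set these 3 apart: their log2 fold changes were 0.36 to 0.43, and none of them was called. Adar, with no full match to the response element core in its windows, lay among them at 0.39. Its most downstream window holds a near match to this core, so Adar is no clear case of a gene without one. The stretches are written 5′ to 3′ on the gene's strand with the matched core in capitals. They run from 250 bases before to 30 bases after the start for Ddx58 (chr4:40239796-40240075, minus strand) and Eif2ak2 (chr17:78882543-78882822, minus strand). For Ifih1 the match lies further on, and positions 17 to 46 after the start are shown (chr2:62646210-62646239, minus strand).
Ddx58: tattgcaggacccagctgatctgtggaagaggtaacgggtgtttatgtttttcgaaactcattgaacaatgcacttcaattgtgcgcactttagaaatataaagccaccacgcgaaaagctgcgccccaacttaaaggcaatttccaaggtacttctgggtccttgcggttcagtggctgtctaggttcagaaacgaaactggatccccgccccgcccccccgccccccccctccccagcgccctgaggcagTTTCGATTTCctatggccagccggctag
Eif2ak2: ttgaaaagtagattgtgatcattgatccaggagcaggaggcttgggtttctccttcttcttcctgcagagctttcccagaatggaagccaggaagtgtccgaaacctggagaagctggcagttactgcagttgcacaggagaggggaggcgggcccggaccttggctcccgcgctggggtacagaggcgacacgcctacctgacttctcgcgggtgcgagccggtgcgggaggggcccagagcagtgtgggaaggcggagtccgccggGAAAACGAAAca
Ifih1: tctggagaagagaatcGAAACAGAAAccga
In Ddx58 the core is on the opposite strand and begins at position 3 after the start, so it appears as TTTCGATTTC. In Eif2ak2 it begins at position 19 and in Ifih1 at position 33.

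Mavs (ENSMUSG00000037523, chromosome 2, 131234063 to 131248025, plus strand), the adaptor through which RIG-I and MDA5 signal, was the most abundant member. It stood at 26.3, 32.1 and 30.7 FPKM in HKO, against 18, 34.4 and 35.8 FPKM in flox/flox libraries. HKO values fell inside the flox/flox range, and flox/flox replicate 1 was far below the other 5 libraries. The group means were 29.7 ± 3.04 FPKM in HKO and 29.4 ± 9.88 FPKM in flox/flox (log2 fold change 0.07, 95% interval -0.56 to 0.70, adjusted p = 0.880). The sign of this difference turned to -0.24 (adjusted p = 0.232) without flox/flox replicate 1.

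Of the endosomal receptors, TLR3 signals through the adaptor TRIF when it meets double-stranded RNA. Tlr3 (ENSMUSG00000031639, chromosome 8, 45395665 to 45411080, minus strand) stood at 2.10, 1.73 and 2.50 FPKM in HKO, against 0.559, 1.09 and 1.27 FPKM in flox/flox libraries. All HKO values were above all flox/flox values, and the HKO mean was 2.16 times the flox/flox mean. The difference narrowly missed the threshold, with a log2 fold change of 0.67 (SE 0.18, adjusted p = 0.0581). Without flox/flox replicate 1, its lowest library, it was 0.50 (adjusted p = 0.0748), and it passed in none of the 6 fits with a library left out. It passed with voom on the rebuilt reads (1.18, adjusted p = 0.0471) and with library totals (0.90, adjusted p = 0.0285), but not with quantile normalization (0.53, adjusted p = 0.0957).

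TLR7 recognizes single-stranded RNA rich in uridine and is known mainly from plasmacytoid dendritic cells, B cells and macrophages. Tlr7 (ENSMUSG00000044583, chromosome X, 167304929 to 167330558, minus strand) was the lowest member, with 1.34, 1.73 and 1.45 FPKM in HKO, against 0.481, 0.399 and 0.628 FPKM in flox/flox libraries. These values rest on 106, 129 and 132 reads in HKO and 29, 25 and 39 reads in flox/flox libraries. The lowest HKO value was well above the highest flox/flox value. Tlr7 was 3.00 times as high in HKO by the means and rose by 0.74 on the log2(FPKM + 1) scale (SE 0.13, adjusted p = 0.0246). The rise was 1.58 with voom on the reads, which adds only a fraction of a read to each count. It was the only member that was not lowest in flox/flox replicate 1, and it was still called without that library (0.73, adjusted p = 0.0384). With any other library left out its log2 fold change stayed between 0.68 and 0.80, but the adjusted p was 0.0617 to 0.0806, and with no filter on low values it was 0.0525.

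PKR, encoded by Eif2ak2 (ENSMUSG00000024079, chromosome 17, 78852564 to 78882573, minus strand), is the kinase that shuts down translation on contact with double-stranded RNA. Eif2ak2 stood at 4.18, 4.32 and 5.02 FPKM in HKO, against 2.33, 3.83 and 3.24 FPKM in flox/flox libraries. The lowest HKO value was above the highest flox/flox value by less than the spread within either group. The log2 fold change was 0.43 (SE 0.16, adjusted p = 0.112), and 0.28 (adjusted p = 0.160) without flox/flox replicate 1.

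ADAR1 has a constitutive nuclear form and a longer, interferon-inducible form, which gene-level values cannot separate. Adar (ENSMUSG00000027951, chromosome 3, 89715022 to 89753446, plus strand) stood at 3.48, 3.81 and 4.33 FPKM in HKO, against 1.73, 3.29 and 3.37 FPKM in flox/flox libraries. The groups were separated only by the gap between 3.37 and 3.48 FPKM. The log2 fold change of 0.39 (SE 0.20, adjusted p = 0.221) became 0.17 (adjusted p = 0.328) without flox/flox replicate 1. Adar shares 1365 exon bases, 16.8% of its length, with Chrnb2 on the opposite strand. Chrnb2 stood at 0.623 to 1.17 FPKM in HKO and 0.361 to 0.474 FPKM in flox/flox libraries, and reads from the shared stretch cannot be assigned where the strand setting is not given. Dhx58, Tlr3 and Eif2ak2 share 0.919% to 7.32% of their length with antisense or noncoding features, and Ddx58, Ifih1, Mavs, Tlr7 and Zbp1 share none.

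Zbp1 (ENSMUSG00000027514, chromosome 2, 173206612 to 173218923, minus strand) showed the largest difference among the members on the log2(FPKM + 1) scale. It stood at 4.11, 4.56 and 5.55 FPKM in HKO, against 1.48, 2.88 and 1.75 FPKM in flox/flox libraries, from 281, 294 and 437 reads in HKO and 77, 156 and 94 reads in flox/flox libraries. All HKO values were above all flox/flox values, with flox/flox replicate 2 the nearest. Zbp1 was 2.33 times as high in HKO by the means and rose by 0.94 (SE 0.19, 95% interval 0.48 to 1.40, adjusted p = 0.0317). The call held without flox/flox replicate 1 (0.81, adjusted p = 0.0489) and without flox/flox replicate 2 (1.13, adjusted p = 0.0390). It was lost without flox/flox replicate 3 or any HKO library, where the log2 fold change was 0.84 to 1.02 and the adjusted p was 0.0767 to 0.0930. With no filter on low values the adjusted p was 0.0676.

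Library totals in place of the authors' scaling gave every member a higher log2 fold change, by unequal amounts. The authors' scaling put the median of all tested genes at -0.06, and relating reads to each library's own total put it at 0.26, so that 19.2% of all genes were then called higher in HKO. With library totals 5 members were called higher (Ddx58, Tlr3, Tlr7, Eif2ak2 and Zbp1), and 4 of these (all but Eif2ak2, adjusted p = 0.0604) without flox/flox replicate 1, where 13.9% of all genes were called higher. Relative to the median of all genes, Zbp1 lay 1.0 above it with the deposited scaling and 0.98 with library totals, Tlr7 0.80 and 0.67, and Tlr3 0.73 and 0.64. Mavs lay 0.13 and 0.20 above it, and the other 5 members 0.31 to 0.49 with the deposited scaling and 0.31 to 0.48 with library totals.

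**Figure D2:**
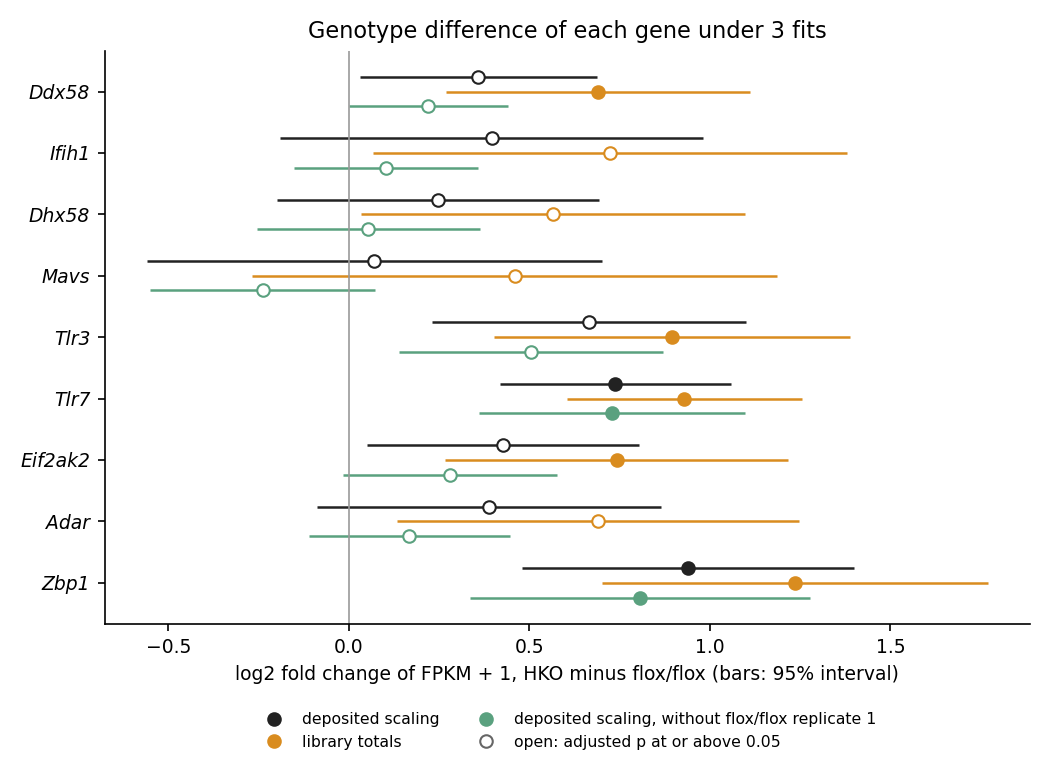
Log2 fold change of FPKM + 1 (horizontal axis, HKO minus flox/flox) of each gene with its 95% interval, under the deposited scaling, library totals, and the deposited scaling without flox/flox replicate 1; filled points have an adjusted p under 0.05. Tlr7 and Zbp1 are filled in all 3 fits, and Mavs falls on either side of 0.

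By level, Mavs led in both genotypes, with no overlap with the next member. In HKO livers the order after Mavs (29.7 FPKM) was Ifih1 (5.90), Ddx58 (5.63), Zbp1 (4.74), Eif2ak2 (4.51), Dhx58 (4.48), Adar (3.87), Tlr3 (2.11) and Tlr7 (1.51). Neighbours from Zbp1 down to Adar overlapped in their ranges, as did Tlr3 and Tlr7. In flox/flox livers the order after Mavs (29.4 FPKM) was Ifih1 (4.46), Ddx58 (4.22), Dhx58 (3.69), Eif2ak2 (3.13), Adar (2.80), Zbp1 (2.04), Tlr3 (0.974) and Tlr7 (0.503). There all neighbours from Ifih1 to Zbp1 overlapped, again as did Tlr3 and Tlr7. Zbp1 thus held rank 4 in HKO and rank 7 in flox/flox. The coefficient of variation was 0.698% to 18.3% among HKO and 19.6% to 39.4% among flox/flox libraries, and was larger in flox/flox for all 9 members, as for 60.6% of all tested genes.

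Ratios between members of 1 library do not depend on its scaling, and those given here were chosen after the values were seen. The 3 RIG-I-like receptors together came to 0.588, 0.508 and 0.531 of the Mavs level in the HKO libraries, against 0.460, 0.445 and 0.378 in the flox/flox libraries. The receptors were thus higher relative to their adaptor in each HKO library, with no overlap. Zbp1 stood at 0.736, 0.809 and 0.979 of the Ddx58 level in HKO, against 0.451, 0.598 and 0.382 in flox/flox libraries, also without overlap. Ifih1 relative to Ddx58 was 1.01 to 1.07 in HKO and 0.762 to 1.22 in flox/flox libraries, and Eif2ak2 relative to Adar was 1.13 to 1.2 in HKO and 0.962 to 1.34 in flox/flox libraries, so these pairs overlapped.

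Cells other than hepatocytes contribute to these values, and in whole tissue more cells of a type and more RNA per cell cannot be told apart. All 9 Kupffer cell and macrophage markers were higher in every HKO than in every flox/flox library, as were 16.8% of all tested genes. Of the 9 markers 3 were called, beside 5.95% of all tested genes called higher. Marco, a scavenger receptor, averaged 17.4 ± 0.24 FPKM in HKO and 3.02 ± 3.03 FPKM in flox/flox (log2 2.46, adjusted p = 0.0285). The lysosomal glycoprotein gene Cd68 averaged 14.5 ± 1.82 FPKM in HKO and 5.33 ± 2.20 FPKM in flox/flox (log2 1.34, adjusted p = 0.0236). Without flox/flox replicate 1, 8 of the 9 were called, beside 6.48% of all tested genes called higher. None of the 9 was called with any other library left out, where 0.153% to 2.1% of all tested genes were called higher. All 9 were called with library totals, beside 19.2% of all tested genes called higher. The list summed to 340, 451 and 431 FPKM in the HKO libraries, against 257, 69.6 and 152 FPKM in the flox/flox libraries. Flox/flox replicate 1 thus had the highest macrophage marker sum of its group, where 8 of the 9 members had their lowest value.

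Set against this sum, Tlr7 came to 0.395, 0.384 and 0.337 FPKM per 100 FPKM of macrophage markers in HKO, against 0.187, 0.573 and 0.413 in flox/flox libraries. The HKO values fell inside the flox/flox range. For Zbp1 the ratio was 1.21, 1.01 and 1.29 in HKO, against 0.575, 4.14 and 1.15 in flox/flox libraries, again with the HKO values inside the flox/flox range. The ratio overlapped between the groups for each of the 9 members, Mavs included (7.12 to 7.74 in HKO and 7.01 to 49.4 in flox/flox). The marker sum itself ran from 69.6 to 257 FPKM among flox/flox libraries, which spreads every such ratio there. The overlap therefore cannot show whether a member differs beyond the markers. Monocyte and dendritic cell markers summed to 2.27 to 4.36 FPKM in HKO and 0.442 to 0.992 FPKM in flox/flox libraries, with none of 8 above the filter and none listed at 0 in all libraries. For 6 of these 8 every HKO library lay above every flox/flox library, as for 16.8% of the tested genes, which include none of the 8. Siglech, which marks plasmacytoid dendritic cells and is named outside the naming rule, averaged 0.182 ± 0.0557 FPKM in HKO and 0.124 ± 0.0097 FPKM in flox/flox. Neutrophil markers summed to 5.43 to 11 FPKM in HKO and 1.15 to 1.99 FPKM in flox/flox libraries. Of these 5 genes 3 were tested and called higher, beside 5.95% of all tested genes, and 1 was listed at 0 throughout. All 3 called genes were under 1 FPKM in flox/flox, and between none and 3 were called with a library left out. Lymphocyte and NK markers summed to 2.67 to 8.19 FPKM in HKO and 0.303 to 2.09 FPKM in flox/flox libraries, and of 8 genes only Nkg7 was tested. It was called, having entered the test through its HKO level, but in none of the 6 fits with a library left out. The part of these cells in the differences of the members was not tested.

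**Figure D3:**
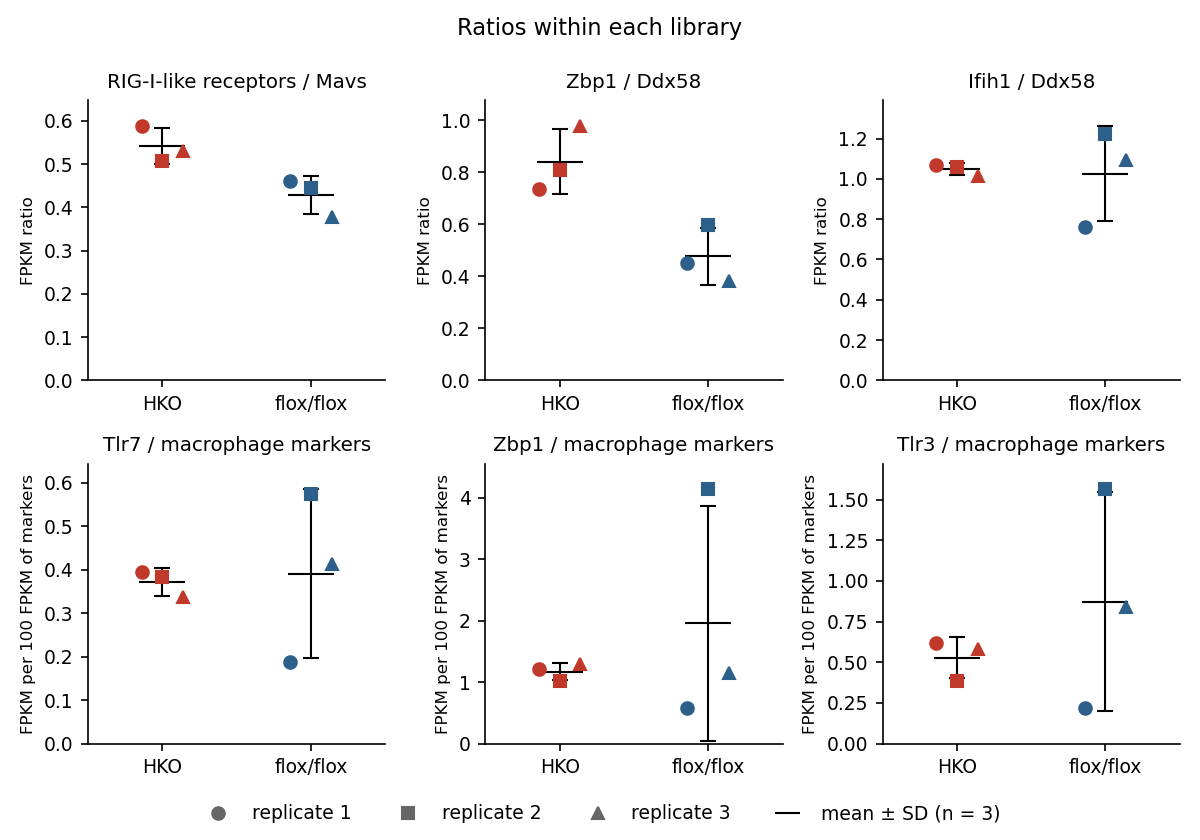
Ratios of FPKM within each library (vertical axes, starting at 0): the summed RIG-I-like receptors to Mavs, Zbp1 and Ifih1 to Ddx58, and Tlr7, Zbp1 and Tlr3 per 100 FPKM of 9 summed macrophage markers, with a symbol per replicate and a bar for the mean ± SD (n = 3). The first 2 ratios separate the genotypes. The marker ratios overlap, and their marker sum varied widely among the flox/flox libraries.

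The rest of the pathway was read from 12 lists of 183 genes in all. With the deposited scaling 5.95% of all tested genes were called higher and 6.86% lower, shares that stand beside every list count below. Without flox/flox replicate 1 the share called higher was 6.48%, and with any other library left out it was 0.153% to 2.1%. These shares stand beside the counts with a library left out. Among the cofactors and signalling partners of the RIG-I-like receptors and MAVS, 1 of 22 tested genes rose, none fell and 21 did not pass (median 0.02), a share near the 5.95% of all tested genes called higher. With library totals 5 of the 22 were called higher (median 0.31), beside 19.2% of all tested genes. The riser was Traf3, a ubiquitin ligase that joins MAVS to its kinases, with 2.82 ± 0.48 FPKM in HKO and 1.43 ± 0.389 FPKM in flox/flox (log2 0.65, adjusted p = 0.0476). It was not called with any 1 of the 6 libraries left out. The kinase gene Tbk1 and the transcription factor gene Irf3, outside the naming rule, stood at 9 and 15.8 FPKM in HKO and 10.2 and 19.5 FPKM in flox/flox (adjusted p = 0.381 and 0.0988). Ikbke and Irf7 of the same list went the other way. They stood at 4.97 and 16.5 FPKM in HKO and 2.85 and 12.6 FPKM in flox/flox (adjusted p = 0.0573 and 0.126). Of the 22 genes 11 had a positive log2 fold change.

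Of 15 genes for partners of the endosomal receptors 12 were tested, 3 rose and none fell (median 0.06). Unc93b1, the chaperone that carries TLR3 and TLR7 to endosomes, rose to 21.5 ± 2.35 FPKM in HKO, against 13 ± 1.03 FPKM in flox/flox (log2 0.68, adjusted p = 0.0246). The protease genes Ctss and Ctsb, whose products can cut these receptors and which macrophages express strongly, rose as well. Ctss averaged 52.0 ± 4.88 FPKM in HKO and 18.5 ± 8.96 FPKM in flox/flox (log2 1.56, adjusted p = 0.0384), and Ctsb 163 ± 12 FPKM in HKO and 96.4 ± 22.6 FPKM in flox/flox (log2 0.78, adjusted p = 0.0444). With 1 library left out the list had between none and 4 calls.

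Active oligoadenylate synthetases bind double-stranded RNA and then make short oligoadenylates that act as an antiviral messenger. The list also holds the synthetase-like genes Oasl1 and Oasl2, and not every listed gene encodes an active enzyme. Of 12 listed genes 5 were tested and 4 rose (median 0.87). Oasl1 averaged 12.6 ± 4.98 FPKM in HKO and 4.20 ± 1.38 FPKM in flox/flox (log2 1.36, adjusted p = 0.0369). Oas1a averaged 4.19 ± 1.12 FPKM in HKO and 1.62 ± 0.262 FPKM in flox/flox (log2 0.97, adjusted p = 0.0270). Oas2 averaged 2.56 ± 0.273 FPKM in HKO and 0.958 ± 0.241 FPKM in flox/flox (log2 0.87, adjusted p = 0.0201), and Oasl2 2.05 ± 0.276 FPKM in HKO and 0.906 ± 0.0649 FPKM in flox/flox (log2 0.67, adjusted p = 0.0246). Oas2 and Oasl2 were under 1 FPKM in flox/flox and entered the test through their HKO levels. In all 6 libraries 3 Oas1 paralogs were listed at 0. These paralogs share sequence, so single Oas1 values are uncertain. With 1 library left out between none and 3 genes of the list were called, 3 of them without flox/flox replicate 1.

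Of the IFIT family, whose products bind foreign 5′ ends of RNA, 1 of 4 tested genes rose (median 0.70): Ifit2, with 2.95 ± 1.02 FPKM in HKO and 0.947 ± 0.164 FPKM in flox/flox (log2 0.99, adjusted p = 0.0320). It entered the test through its HKO level and was not called with any library left out. Of the other double-stranded RNA binding proteins, which include the helicase DHX9, Staufen and Dicer, none of 13 tested genes was called by limma (median -0.06), and none had an unadjusted p under 0.05. The most abundant of them, Son, stood at 22 ± 0.516 FPKM in HKO and 18.6 ± 2.64 FPKM in flox/flox (adjusted p = 0.246).

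Downstream of PKR, the list of the other eIF2alpha kinases and the integrated stress response had 1 rise and 1 fall among 16 tested genes (median 0.06). Both counts are near the shares over all tested genes, 5.95% called higher and 6.86% lower. Nupr1, a stress-induced transcriptional regulator, rose to 2.69 ± 1.76 FPKM in HKO, against 0.201 ± 0.103 FPKM in flox/flox (log2 1.51, adjusted p = 0.0365). It entered the test through its HKO level alone, and with no filter on low values no gene of this list was called. Chac1, a glutathione-degrading enzyme induced by ATF4, fell to 4.36 ± 1.12 FPKM in HKO, against 7.70 ± 0.628 FPKM in flox/flox (log2 -0.72, adjusted p = 0.0413), and was at -0.38 (adjusted p = 0.180) with library totals. Without flox/flox replicate 1 neither was called (adjusted p = 0.0657 for Nupr1 and 0.0564 for Chac1). Among partners of ZBP1 in necroptosis 1 of 6 tested genes rose and 1 fell. Mlkl, the pore-forming executioner, rose to 4.01 ± 0.477 FPKM in HKO, against 1.85 ± 0.613 FPKM in flox/flox (log2 0.83, adjusted p = 0.0358). Casp8, a protease that holds necroptosis in check, fell to 7.63 ± 0.502 FPKM in HKO, against 11.4 ± 0.877 FPKM in flox/flox (log2 -0.52, adjusted p = 0.0308), and was at -0.16 (adjusted p = 0.399) with library totals. With library totals 5 of the 16 stress response genes and 3 of the 6 necroptosis genes were called higher and none lower. Over all tested genes 19.2% were then called higher and 1.92% lower. With 1 library left out each of these lists had at most 1 rise, Mlkl and Casp8 being called without flox/flox replicate 1 (adjusted p = 0.0351 and 0.0337).

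The interferons themselves were close to absent from the reads. Of 20 interferon genes 17 were listed at 0 in all libraries, and Ifnb1, Ifng and Ifnk together had 18 reads over the 6 libraries, with no value above 0.223 FPKM. A listing at 0 does not by itself show absence, since Dgcr8, a gene of the general microRNA machinery, was listed at 0 as well. Among interferon receptors and their signal transducers 5 of 16 tested genes rose and none fell (median 0.31). Usp18, which restrains interferon signalling, averaged 10.003 ± 2.38 FPKM in HKO and 4.27 ± 0.557 FPKM in flox/flox (log2 1.05, adjusted p = 0.0212). Ifngr1, a chain of the interferon-gamma receptor, averaged 14.8 ± 1.51 FPKM in HKO and 6.98 ± 1.58 FPKM in flox/flox (log2 1.0, adjusted p = 0.0215), and the transcription factor gene Irf1 8.68 ± 1.28 FPKM in HKO and 4.03 ± 0.821 FPKM in flox/flox (log2 0.95, adjusted p = 0.0227). Il10rb, a shared chain of interferon-lambda and interleukin receptors, averaged 2.35 ± 0.21 FPKM in HKO and 1.11 ± 0.21 FPKM in flox/flox (log2 0.67, adjusted p = 0.0273).

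Of 30 type I interferon-induced genes 26 were tested, 10 rose, none fell and 16 did not pass (median 0.49). Cxcl10, a T cell attractant, averaged 4.64 ± 1.88 FPKM in HKO and 0.655 ± 0.0839 FPKM in flox/flox (log2 1.72, adjusted p = 0.0168), and entered the test through its HKO level. Isg15, a ubiquitin-like modifier, averaged 28.3 ± 3.10 FPKM in HKO and 10.2 ± 3.60 FPKM in flox/flox (log2 1.44, adjusted p = 0.0209). Rtp4 averaged 18.3 ± 6.53 FPKM in HKO and 6.29 ± 1.13 FPKM in flox/flox (log2 1.36, adjusted p = 0.0265), and Ifi27l2a 17.9 ± 3.87 FPKM in HKO and 7.15 ± 0.692 FPKM in flox/flox (log2 1.2, adjusted p = 0.0165). When flox/flox replicate 1 was left out, 8 of these genes and 4 of the receptors and transducers were called. With another library left out the calls were as few as 1 of these genes and none of the receptors and transducers. With library totals 17 of the 26 interferon-induced genes and 10 of the 16 receptors and transducers were called higher, again beside 19.2% of all tested genes.

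**Figure D4:**
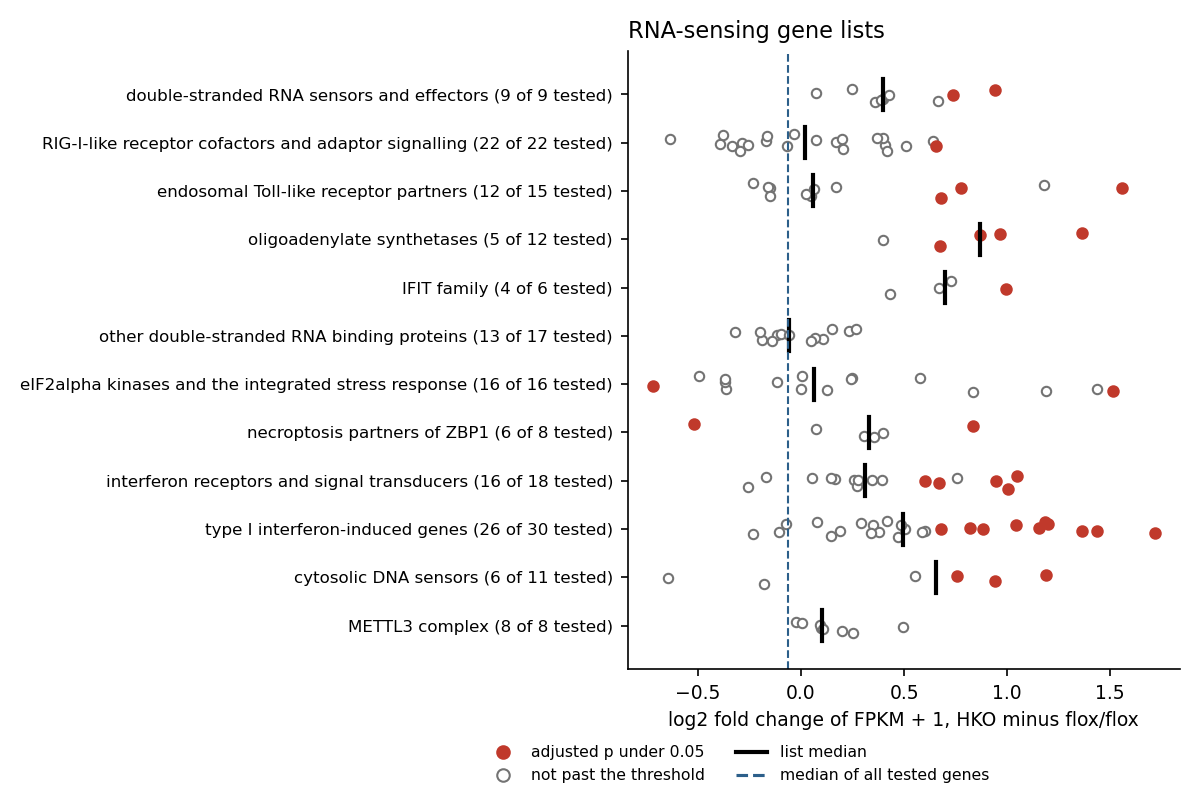
Log2 fold change of FPKM + 1 (horizontal axis, HKO minus flox/flox) of every tested gene in the lists of RNA sensing, with filled points for an adjusted p under 0.05, a black bar for each list's median and a dashed line for the median of all 11086 tested genes (-0.06). The 9 sensors and effectors have a median of 0.40, and the oligoadenylate synthetase list one of 0.87 over 5 tested genes.

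Protein-coding genes with the most similar pattern over the 6 libraries were sought for the 3 members with the largest log2 fold change, by the root mean square difference of centred log2(FPKM + 1) values. For Zbp1 they were Dqx1 (0.12), Twf2 (0.12) and Irf1 (0.12), the last a transcription factor gene. For Tlr7 they were Fgr (0.05), Pip4k2a (0.05) and Was (0.06), of which Fgr and Was are known from blood cells. For Tlr3 they included Traf3 (0.04) and Dus2 (0.07). A small difference on this scale is easier to reach for genes of low level, and all 6 libraries share the genotype difference.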

How the data were processed

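The authors' alignment was with HISAT2 2.0.5 against GRCm38.p6, and genes were quantified with featureCounts 1.5.0-p3, both per the series' design text and the submitters' processing notes. Libraries were made from poly(A) RNA, per the labels' protocols, and read from both ends, per the design text. The authors deposited FPKM values per gene, which are not counts. Multiplied by gene length, 100% of them were whole multiples of a common step per library within 0.01 read, which gave the recalculated reads. The FPKM denominator equalled a median-of-ratios size factor times the geometric mean of library totals. The labels do not tie libraries to separate animals, and the p-values reflect how far these libraries differ among themselves.

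Genotype was tested with limma 3.58.1 in R 4.3.3, using log2(FPKM + 1) of genes with a mean of at least 1 FPKM, no other term and an intensity trend, two-sided, adjusted by Benjamini-Hochberg over all tested genes. The test was tried on simulated data. Python 3.11.15 was used for tables. The members and lists were chosen with earlier results of these data known. Named genes were all 9 members, and from each list up to 4 called genes with the largest change, or the most abundant where none was called; of the markers, up to 2 per list. From some lists fewer are named. For genes of like pattern, Gm and Rik symbols were left out. Alternatives were 16 planned settings and 1 added after the data were seen, library totals without flox/flox replicate 1. No set test was run.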

Additional observations from a re-analysis of the deposited data

How the results depend on the processing

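Over 17 alternatives the log2 fold changes of 8 members stayed positive; only that of Mavs turned, to -0.24 without flox/flox replicate 1, and was at most 0.24 with another library left out. Zbp1 stayed between 0.81 and 1.27 and was called in 11 of the 17, Tlr7 between 0.59 and 1.58 and in 10, Tlr3 between 0.50 and 1.18 and in 3. Ifih1, Dhx58, Mavs and Adar were called in none. The number of members called was 2, against 5 with library totals, 4 with library totals without flox/flox replicate 1, 0 with no filter on low values, and 0 to 2 with a library left out. Over all tested genes 1421 were called, against 2345 with library totals, 510 with no filter, and 30 to 1454 with a library left out. Of all calls 46.4% were higher in HKO with the deposited scaling, 60.2% with size factors taken from the tested genes, 62.7% with quantile normalization and 90.9% with library totals. Same-numbered libraries of the genotypes share only a number: their deviations from the group means correlated at -0.0026, -0.0996 and -0.0673, and no library correlated best with its own number. With the replicate block 0 members and 199 genes were called. Counts in the 20 pathway and marker lists moved by over 1.5 times in 12 to 14 of them with HKO replicate 1, 2 or 3 or flox/flox replicate 2 or 3 left out, and in 5 without flox/flox replicate 1. Depth limits Tlr7 and Tlr3 most, with as few as 25 and 43 reads in a library.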

Other observations

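Sensors of cytosolic DNA, which share the kinase step after MAVS, were read from a list of 11 genes, of which 6 were tested and 3 rose (median 0.65). Ifi204 averaged 5.05 ± 0.328 FPKM in HKO and 1.70 ± 0.594 FPKM in flox/flox (log2 1.19, adjusted p = 0.0187), and Ifi203 3.37 ± 0.674 FPKM in HKO and 1.28 ± 0.38 FPKM in flox/flox (log2 0.94, adjusted p = 0.0246). Tmem173, encoding the adaptor STING, averaged 2.01 ± 0.249 FPKM in HKO and 0.786 ± 0.203 FPKM in flox/flox (log2 0.76, adjusted p = 0.0251), and entered the test through its HKO level. All 3 were also called without flox/flox replicate 1, and with other single libraries left out as few as none. None of the 8 tested genes of the METTL3 complex was called by limma (median 0.10); the most abundant, Wtap, averaged 6.67 ± 0.371 FPKM in HKO and 5.44 ± 0.243 FPKM in flox/flox (adjusted p = 0.117).

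Stellate cell markers summed to 51.1 to 63.2 FPKM in HKO and 27.6 to 40.3 FPKM in flox/flox libraries, with 3 of 6 called higher, Col1a1 and Rgs5 first (log2 1.42 and 1.05). Between none and 2 of the 6 were called with a library left out, and Col1a1 was at an adjusted p of 0.0671 without flox/flox replicate 1. Cholangiocyte markers summed to 27.3 to 57.4 FPKM in HKO and 19.2 to 29.1 FPKM in flox/flox libraries, with 1 of 2 tested genes called, Sox9 (log2 1.09), which entered the test through its HKO level and was also called without flox/flox replicate 1 (adjusted p = 0.0276) but not in every fit with a library left out. Sinusoidal endothelial markers, of which none of 6 was called, summed to 43.9 to 63.7 FPKM in HKO and 23.2 to 65.2 FPKM in flox/flox libraries, with flox/flox replicate 1 the highest of all 6.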
